A study of Arabidopsis thaliana with 6 samples.

Results

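The transcripts described here were dim in wild-type Arabidopsis thaliana flowers and lower, at no more than 25% of the wild-type signal, in flowers that overexpress miR159a. They were chosen on the deposited linear signals by 3 limits. The mean of the 3 wild-type arrays lay from 80 to under 300, the mean of the 3 overexpressor arrays was at most 25% of it, and the lowest wild-type value exceeded the highest overexpressor value. Control probe sets and 6 genes left out by name did not enter. Of 22746 probe sets, 133 met the limits, 4 of these were left out by name (AT3G06830, AT2G47550, AT5G39580 and AT2G21480), and 129 remained. A lowest wild-type value above the highest overexpressor value was found for 7.2% of the 17059 probe sets tested in the fit over all probe sets. ANX1 and ACT12, also on the list of names, had wild-type means of 51.4 and 69.9 and lay outside the band in any case. Among the 129 probe sets, 82 name 1 gene, 1 names several genes and 46 are unnamed here. The fall itself chose these probe sets, so all their differences between the groups are given as a description and no test supports them.

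Both groups are total RNA from stage 15 flowers, hybridised to 1 array per sample. The 3 overexpressor samples came from transgenic plants overexpressing miR159a, and the 3 wild-type samples from Columbia plants. The promoter of the transgene, the number of lines and the plants behind a sample are unstated in the labels, so the spread between samples may be technical. Samples of each group carry the letters a, b and c, and triplets of values below follow that order.

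MicroRNA miR159 pairs with transcripts of GAMYB-like MYB transcription factors and lowers them. These factors act in the tapetum of the anther and in pollen, and excess miR159a is known to disturb anther development. Pollen that has matured carries a store of transcripts for the growth of the pollen tube, in which enzymes of the wall, receptor kinases, calcium and phosphoinositide signalling and membrane traffic at the tip take part.

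The arrays had been scaled to a common level, with a mean of 200 on each of the 6 arrays once the lowest and highest 2% of values were left out, and their medians ran from 85.2 to 96.9. Overexpressor replicate a read 3079.6 on the probe set that controls for 25S ribosomal RNA, against 29.6 and 51.2 on the other overexpressor arrays and 11.1 to 32.6 in wild type. Tapetum markers, with 2 of 17 measured, had summed signals of 8.3 to 14.3 in the overexpressor and 9.5 to 20 in wild type. Both genes, AMS and AT5G07230, read below the lower quartile of all probe sets on every array of both groups. Their sums therefore give no measure of the tapetum. The pistil and ovule list, with 5 of 11 genes measured, summed to 680.0 to 769.3 in the overexpressor and 560.1 to 678.0 in wild type. Much of each sum was ALC, with 411.5, 405.6 and 474.3 in the overexpressor and 396.8, 309.0 and 320.1 in wild type. Of the 4 genes of this list tested in the fit over all probe sets, 0 were called lower and 0 higher. Photosynthesis genes, with 4 of 10 measured, summed to 10123 to 14314 in the overexpressor and 7600 to 11268 in wild type.

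Over the 129 probe sets, the median signal was 12.1, 31.2 and 11.3 on the overexpressor arrays, against 216.7, 135.5 and 104.8 on the wild-type arrays. The median share of wild-type signal left in the overexpressor was 11.4%, with quartiles of 7.64% and 17.5% and a range from 0.883% to 24.8%. Of the 129, 9 kept under 5%, 57 under 10%, 53 from 10% to under 20% and 19 at least 20%. Of the 129 probe sets, 80, 28 and 92 were below the lower quartile of all probe sets on overexpressor arrays a, b and c, so most lay there on a and c but not on b. The 22 below it on all 3 kept 0.883% to 9.29%, and such shares have no exact size, since no detection call was used. No probe set of the 129 was below that quartile on a wild-type array.

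**Figure D1:**
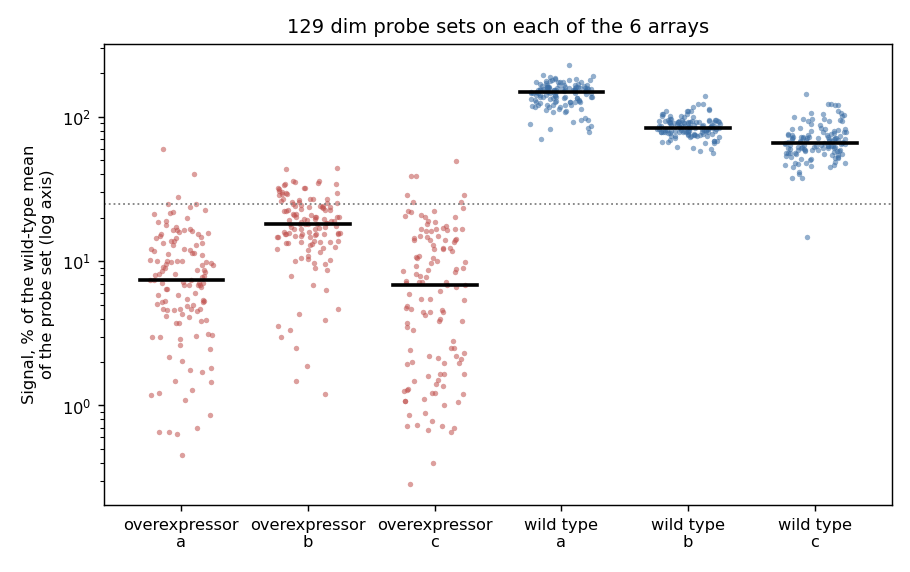
Signal of each of the 129 probe sets on each array, as a percentage of that probe set's wild-type mean (log axis), with the median as a bar and 25% as a dotted line. The medians were 7.46%, 18.1% and 6.86% on overexpressor arrays a, b and c, and 150%, 84.3% and 65.8% on wild-type arrays a, b and c.

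The arrays of each group followed an order. Overexpressor replicate b was the highest of its group for 103 of the 129 probe sets, replicate c for 18 and replicate a for 8. In wild type, replicate a was the highest for 114 probe sets, replicate b for 8 and replicate c for 7. The highest wild-type array was a median of 2.22 times the lowest in these probe sets, against 1.34 times over all 7243 probe sets with a wild-type mean from 80 to under 300. Within the letters, the median share left was 5.70% for a, 21.4% for b and 10.1% for c. All 3 letters gave at most 25% for 71 of the 129 probe sets. Without overexpressor replicate b, the share left was more than 1.5 times lower for 60 of the 129 probe sets, and without wild-type replicate a it was more than 1.5 times higher for 21, a count made after the data were seen. As a description over the 129, deviations from the group means had a Pearson r of 0.30, 0.02 and 0.27 within the letters a, b and c, and overexpressor c went with wild-type b to the same degree (0.28), so these values over the 129 do not set the letters apart as pairs. Over all probe sets tested, each array had its highest r with its own letter, at 0.57, 0.36 and 0.38, against -0.42 to 0.10 across letters. Deviations from a group mean cancel over its 3 arrays. High values within letters thus partly force low ones across them, and the low ones are no separate evidence of pairs. With both arrays lettered a left out, the limits held for 111 probe sets, 82 of them among the 129.

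Enzymes and other proteins of the cell wall loosen and rebuild the wall of growing cells such as the pollen tube. The 12 wall genes kept between 0.883% and 24.8% of the wild-type signal, with a median of 13.8%, and overexpressor replicate b was the highest overexpressor array for all 12. AT5G20390, for a glucanase-type glycosyl hydrolase, had signals of 11.8, 28.3 and 1.7 in the overexpressor, against 431.8, 229.8 and 121.2 in wild type. AT5G07420, which encodes a pectinesterase that removes methyl groups from pectin, had 16.5, 34.4 and 1.8 in the overexpressor and 324.6, 237.1 and 210.6 in wild type. In the mean these genes kept 5.34% and 6.82%, and replicate c was far the lowest overexpressor array for both.

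AT4G33860, for a xylanase-type glycosyl hydrolase, had the lowest computed share of the 129, 0.883%, on overexpressor signals below the lower quartile of every overexpressor array. It had 0.8, 2.6 and 1.3 in the overexpressor, against 405.8, 100 and 26.2 in wild type. Its share was 2.48% without wild-type replicate a. Its wild-type arrays spanned 15.5-fold, the widest ratio of the 129, and its probe set carries the platform's suffix for sets that can read several similar transcripts. CSLC12, a cellulose-synthase-like gene of xyloglucan synthesis, kept far more, with 49.2, 84.0 and 25.4 in the overexpressor against 395.2, 237.4 and 146.0 in wild type, or 20.4%. AT4G15980, another pectinesterase gene, had the highest share of the 129 at 24.8%, with 29.0, 34.9 and 22.1 in the overexpressor and 157.0, 115.0 and 75.4 in wild type.

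Other wall genes lay between these, and they are named after their values were seen. GH9B11, for a cellulase-type glycosyl hydrolase, kept 8.54%, with 3.5, 40.5 and 7.0 in the overexpressor and 279.7, 172.3 and 145.0 in wild type. EXPB5, a beta-expansin gene whose product loosens walls, kept 17.9%, with 26.3, 57.6 and 24.7 in the overexpressor and 300.3, 153.4 and 151.8 in wild type. ATPMEPCRB, a pectin methylesterase gene, kept 22.2%. For all 3, the signal left was highest in overexpressor replicate b. AT4G33970, the leucine-rich repeat extensin gene of pollen listed as LRX11, had 10.2, 50.3 and 27.4 in the overexpressor, against 292.5, 174.3 and 106.5 in wild type.

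**Figure D2:**
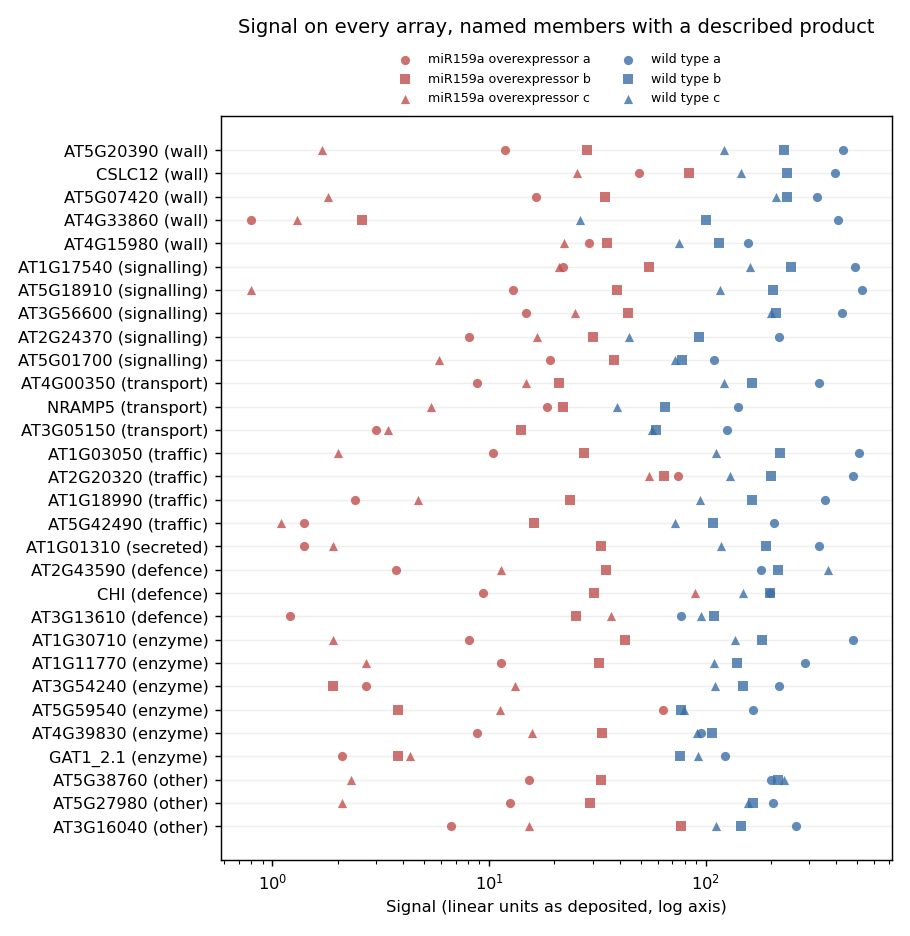
Signal on every array (log axis) for the named members with a described product, one row per gene, with the role in brackets. Overexpressor arrays are red and wild-type arrays blue, and circle, square and triangle stand for letters a, b and c. The widest wild-type spread is that of AT4G33860, from 26.2 to 405.8, and for most rows the overexpressor square is the rightmost red point.

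Signalling genes, 14 in all, kept from 6.22% to 24.2% with a median of 12.0%. AT5G18910, for a receptor-like cytoplasmic kinase, had 12.9, 38.9 and 0.8 in the overexpressor, against 525.5, 204.0 and 116.4 in wild type. AT1G17540, a protein kinase gene, had 22, 54.6 and 21.0 in the overexpressor and 488.5, 248.3 and 159.1 in wild type. AT3G56600, of the phosphatidylinositol kinase family, had 14.8, 43.8 and 25 in the overexpressor and 423.0, 210.6 and 200.4 in wild type. In all 3 genes wild-type replicate a was by far the highest array.

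A further 4 of the signalling genes are named after their values were seen. PIPK11, a phosphatidylinositol phosphate kinase gene of pollen, kept 8.75%, with 4.0, 45.6 and 2.4 in the overexpressor and 345.8, 154.6 and 93.6 in wild type. AT4G27790, for a calcium-binding EF-hand protein, kept 10.3%, with 17.6, 44.3 and 2.1 in the overexpressor and 284.5, 197.3 and 141.9 in wild type. For both, overexpressor replicate b held more than the other 2 overexpressor arrays together. AT3G03430, an EF-hand gene of the polcalcin type, kept 17.1%. AT2G26490, known as JINGUBANG, a WD40 protein gene that restrains pollen germination, kept 9.42%, with 10.6, 29.5 and 2.4 in the overexpressor and 212.5, 136.2 and 102.6 in wild type.

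A pair of leucine-rich repeat receptor kinase genes, both known from the perception of the pistil's LURE attractant peptides by the pollen tube, stood among the members with a larger share left. AT5G45840, listed as MDIS1, had 32.5, 22.6 and 16.6 in the overexpressor, against 242.0, 132.2 and 86.7 in wild type, and kept 15.6%. AT4G08850, listed as MIK2, which also acts in defence and in roots, had 25.9, 66.2 and 70.9 in the overexpressor and 216.7, 386.1 and 229.5 in wild type, and kept 19.6%. The profiles of the pair over the arrays differed, since replicate a was the highest of both groups for AT5G45840 and the lowest of both groups for AT4G08850. AT2G24370, a protein kinase gene, and AT5G01700, for a protein phosphatase of the 2C class, kept 15.4% and 24.2%. AT2G24370 had 8.1, 30.1 and 16.6 in the overexpressor, against 217.8, 92.6 and 44.3 in wild type. AT5G01700 had 19.0, 37.6 and 5.9 in the overexpressor, against 109.4, 77.3 and 71.7 in wild type.

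Membrane traffic and motor genes, 6 in all, kept between 4.73% and 24.0%. AT1G03050, for an ENTH/ANTH domain protein that gathers cargo into clathrin-coated vesicles, had 10.4, 27.3 and 2.0 in the overexpressor, against 507.6, 219.5 and 111.7 in wild type. AT1G18990, for a protein of the myosin-binding DUF593 family, had 2.4, 23.6 and 4.7 in the overexpressor and 356.6, 163.7 and 93.7 in wild type. AT5G42490, a kinesin gene, had 1.4, 16.1 and 1.1 in the overexpressor and 206.8, 107.5 and 72.0 in wild type. These 3 kept the least of the 6, at 4.73%, 5% and 4.81%. AT2G20320, for a DENN domain protein, which regulates Rab GTPases, kept 24.0%, with 74.4, 64.4 and 54.5 in the overexpressor and 478.4, 199.3 and 128.7 in wild type.

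The 3 transporter genes kept 7.24%, 8.47% and 18.7%. AT4G00350, of the MATE efflux family, had 8.8, 21.1 and 14.8 in the overexpressor, against 332.6, 163.6 and 121.2 in wild type. AT3G05150, of the sugar transporter family, had 3.0, 14 and 3.4 in the overexpressor and 125.5, 58.9 and 56.5 in wild type. The metal transporter gene NRAMP5 was nearer to overlap, with 18.4, 22 and 5.4 in the overexpressor and 141.3, 64.6 and 39.1 in wild type. AT1G01310, for a secreted protein of the CAP superfamily, had 1.4, 32.7 and 1.9 in the overexpressor and 333.8, 189.5 and 117.4 in wild type. Its overexpressor mean rested on replicate b.

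Enzymes of other kinds, 11 in all, had a median share left of 8.66%. GAT1_2.1, a glutamine amidotransferase gene, had 2.1, 3.8 and 4.3 in the overexpressor and 122.6, 76.0 and 92.0 in wild type, and kept 3.51%. AT3G54240, for an alpha/beta hydrolase, had 2.7, 1.9 and 13.2 in the overexpressor and 216.7, 148.1 and 109.7 in wild type. SUFE2, for a SufE-like protein of iron-sulfur cluster assembly known from pollen, had 9.9, 1.9 and 4.7 in the overexpressor and 151.0, 92.6 and 58.8 in wild type. In none of these 3 was overexpressor replicate b the highest overexpressor array, as it was for the wall genes. All their overexpressor values lay below the lower quartile of all probe sets, which was 15.4, 18.9 and 18.2 on a, b and c. The order of their overexpressor arrays therefore has no clear meaning.

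AT1G30710 and AT1G11770, both for berberine bridge enzyme-like proteins, kept 6.55% and 8.66%. AT1G30710 had 8.1, 42.2 and 1.9 in the overexpressor, against 480.3, 180.9 and 135.7 in wild type. AT1G11770 had 11.4, 32.3 and 2.7 in the overexpressor, against 286.9, 139.7 and 109.2 in wild type. The order of the arrays was the same for the pair. AT4G39830, of the ascorbate oxidase family, had nearly level wild-type values, with 8.8, 33.2 and 15.7 in the overexpressor and 95.2, 106.3 and 91.0 in wild type. AT5G59540, for an oxygenase that uses 2-oxoglutarate, rested on an uneven overexpressor group, with 63.7, 3.8 and 11.2 there and 165.4, 76.7 and 79.2 in wild type.

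AT4G14090, an anthocyanin glucosyltransferase gene, kept 21.1%, with 49.8, 17.1 and 11.5 in the overexpressor and 165.5, 86.1 and 119.7 in wild type. Seed maturation and late embryogenesis proteins protect drying cells and are also stored in pollen. AT5G38760, for a late embryogenesis abundant protein, had 15.3, 33 and 2.3 in the overexpressor and 199.2, 216.5 and 229.9 in wild type. AT5G27980, of the seed maturation family, had 12.5, 29.2 and 2.1 in the overexpressor and 204.0, 165.3 and 156.1 in wild type. Unlike most of the 129, both had nearly level wild-type arrays, the highest being 1.15 and 1.31 times the lowest, while their overexpressor arrays kept the order b, a, c. AT3G16040, a gene of the translation machinery, had 6.7, 76.5 and 15.2 in the overexpressor and 261.8, 146.1 and 111.6 in wild type, so its overexpressor mean rested on replicate b.

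Genes known from defence numbered 4 and kept a median of 20.4%. AT2G43590, of the chitinase family, was the lowest at 6.51%, with 3.7, 34.6 and 11.3 in the overexpressor and 179.2, 214.8 and 368.2 in wild type. CHI (AT2G43570), a chitinase family gene of the same cluster, had 9.4, 30.4 and 88.9 in the overexpressor and 196.8, 197.6 and 148.0 in wild type. AT3G13610, for the hydroxylase of scopoletin synthesis known as F6'H1, had 1.2, 25.3 and 36.5 in the overexpressor and 76.6, 108.8 and 95.1 in wild type. None of these 3 had wild-type replicate a as the clear high array. AT3G48450, for a RIN4-like protein, had 6.0, 23.4 and 15.1 in the overexpressor and 100.4, 74.1 and 66.9 in wild type.

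**Figure D3:**
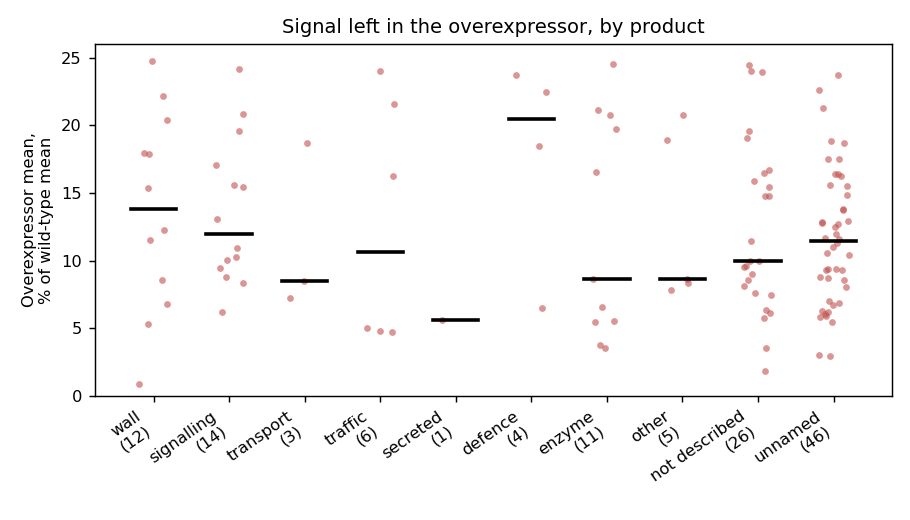
Overexpressor mean as a percentage of the wild-type mean for each of the 129 probe sets other than the 1 that names several genes, by the role of the product, with the median as a bar and the number of probe sets in brackets. Medians ran from 5.62% for the 1 secreted protein to 20.4% for the 4 defence genes, and the roles overlapped widely.

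For 26 members that name 1 gene, no product was described here and no role was given, so the counts by role may be too low. These 26 kept a median share of 9.96%, close to the 11.5% of the 46 unnamed probe sets. AT5G61710 kept 1.85%, or 2.87% without wild-type replicate a, with 0.9, 2.6 and 2.3 in the overexpressor and 178.0, 79.6 and 55.1 in wild type. AT5G26060 kept 3.52%, with 1.2, 16.4 and 2.4 in the overexpressor and 289.5, 144.2 and 133.7 in wild type. AT1G19500 had 10.9, 33.9 and 3.6 in the overexpressor and 384.0, 215.2 and 187.0 in wild type. In these 3 wild-type replicate a was again the highest. AT3G62640 had 15.4, 56.4 and 13.6 in the overexpressor and 361.3, 298.6 and 233.1 in wild type. AT4G18395 had 14.2, 34.7 and 20 in the overexpressor and 189.9, 219.5 and 193.9 in wild type, the second most even wild-type values of the 129 after AT5G38760.

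Among the 18 probe sets whose highest overexpressor array was c, the highest wild-type array was more mixed. Wild-type replicate a was the highest wild-type array for 9 of these 18 (50%), against 97 of the 103 (94.2%) whose highest overexpressor array was b and 8 of the 8 whose highest was a. The 18 name 11 genes, among them CHI, AT3G13610, AT4G08850, GAT1_2.1 and AT3G54240, and 0 of the 12 wall genes. Some of the 11, GAT1_2.1 and AT3G54240 among them, read below the lower quartile of all probe sets on every overexpressor array. Which of those arrays was highest is therefore uncertain for them. AT1G65500 had 10.7, 50.9 and 60.5 in the overexpressor, against 236.6, 251.7 and 338.1 in wild type. AT2G18690 had 14.5, 35.6 and 56.6 in the overexpressor, against 193.0, 158.6 and 85.2 in wild type. This division was made after the values were seen and was not tested.

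At the edges of the limits the values ran on without a step. Just inside the lower limit of the band, AT3G05150 and AT3G48450 had wild-type means of 80.3 and 80.5, and just outside it 2 unnamed probe sets had 79.2 and 79.8. Near the upper limit, AT3G62640 and AT1G17540 had 297.7 and 298.6 inside, against 304.5 for AT2G18180 and 306.8 for an unnamed probe set outside. The shares left of AT5G59540 and AT4G15980, 24.5% and 24.8%, lay inside, and those of AT2G32190 and WRKY53, 25.2% and 25.6%, outside. The smallest gap between the groups was 13.0 signal units for AT5G59540 and 14.2 for AT2G24370. A single gene, AT1G49500, met the other limits but overlapped between groups by 13.4 units.

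Strong falls of this kind made up 1.84% of the 7243 probe sets in the band, the 4 left out by name included. The same limits on the share left and the separation held for 101 of 3701 probe sets (2.73%) with a wild-type mean from 300 to under 1000, and for 49 of 1171 (4.18%) from 1000 upwards. The dim probe sets kept a median of 11.5%, the middle band 7.51% and the bright band 7.76%, and a share under 10% was kept by 42.9%, 74.3% and 73.5% of them. The overexpressor signal behind these shares had medians of 18.2, 40.9 and 137.8. Turned round, the limits for a rise (wild type at most 25% of the overexpressor, no overlap) held for 2 probe sets of the dim band and 0 of each brighter one. The bands were still set by the wild-type mean, which is the lower group for a rise and the higher group for a fall. Rises from a lower wild-type level were therefore not counted, and the counts of rises and falls cannot be compared.

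**Figure D4:**
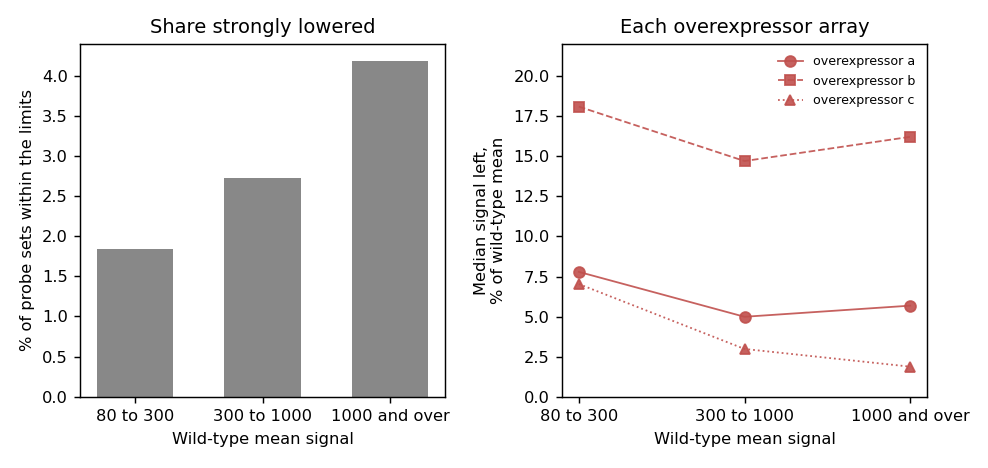
Left, percentage of the probe sets of each band of wild-type mean signal that met the limits on the share left and the separation of the groups. Right, median signal left on each overexpressor array as a percentage of the wild-type mean, for those probe sets. Replicate b kept 18.1%, 14.7% and 16.2% from the dim to the bright band and replicate c 7.03%, 2.98% and 1.88%.

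In the fit over all probe sets (limma on log2(signal + 16), two-sided, Benjamini-Hochberg adjusted p under 0.05), all 129 passed the filter on low values and 115 were called lower, against 2.17% of the 17059 probe sets tested. The same contrast chose the 129, so nothing is read from this count. With the letter as a replicate block, 126 of the 129 were called, and the calls over all probe sets numbered 570 lower, against 370 without the block. The call failed for 14, with adjusted p in limma from 0.0505 for CSLC12 to 0.219 for AT5G59540, and AT4G33860 was among them at 0.114. The count was 65 when overexpressor replicate a was left out and 46 when its replicate c was. It was 14 without wild-type replicate b and 36 without both arrays lettered a.

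Genes next to a member on the chromosome were not chosen by the limits. The adjacent protein-coding gene had a named probe set for 60 members, which gave 84 neighbours, 0 of them members themselves. Of 62 neighbours tested, 4 were lower and 0 higher, or 6.45%, against 2.37% of all 9379 named genes tested, a difference that was not tested. The 4 became 1 when overexpressor replicate a was left out, 2 when overexpressor replicate c or wild-type replicate c was, 0 when wild-type replicate a or b was, and 1 without both arrays lettered a. Over the 62 neighbours tested, the median log2 fold change was 0.04, against 0.05 over all named genes tested. AT3G01240, next to AT3G01250, fell (limma adjusted p = 0.0320), with signals of 56.4, 241.6 and 15.5 in the overexpressor and 1601, 963.5 and 774.4 in wild type. AT3G01630, next to AT3G01620, fell as well (limma adjusted p = 0.0120), with 1.3, 7.0 and 2.6 in the overexpressor and 104.8, 54.4 and 43.6 in wild type. The other neighbours that fell were AT5G61720, next to AT5G61710, and AT5G07430, a pectinesterase gene next to AT5G07420. Whether the probe sets of this pectinesterase pair share signal was not tested.

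A list of 59 genes of mature pollen and pollen tubes had a named probe set for 19, of which AT4G33970 is 1 of the 129 and 3 were left out by name. Of the remaining 15, 14 were tested, and 10 fell and 0 rose, with a median log2 fold change of -2.99, against 2.17% lower, 0.135% higher and a median of 0.04 over all probe sets tested. The list was chosen with earlier results of these data known, so its counts are a description. AGL94, too low to be tested, had 5.3, 12 and 3.3 in the overexpressor and 4.4, 0.7 and 2.9 in wild type. Summed over the 19, the signal was 345.7 to 1242 in the overexpressor and 4008 to 9305 in wild type. The 1 sperm cell marker measured of 6, MGH3, had 2.2, 9.3 and 2.7 in the overexpressor and 79.3, 28.6 and 24.7 in wild type. The reference genes, with 4 of 6 measured, summed to 4083 to 6384 in the overexpressor and 4617 to 6302 in wild type. In whole flowers, fewer pollen grains and less RNA per grain cannot be told apart, and the part of this list's fall in that of the 129 was not tested. PLIM2a, for an actin-bundling LIM protein of pollen, fell (limma adjusted p = 0.0192), with 46, 201.4 and 17.4 in the overexpressor and 1814, 985.0 and 812.3 in wild type. AT2G41970, for the pollen tube kinase MARIS, lay below the band and fell too (limma adjusted p = 0.0206), with 10, 17 and 9.2 in the overexpressor and 65.6, 40.5 and 42.5 in wild type. Both shared the high overexpressor replicate b and the high wild-type replicate a. The 4 tested genes that did not pass were AGL66, AGL104, AGL30 and AGL65, MADS-box genes of pollen, with log2 fold changes of -0.91, -0.77, -0.37 and -0.12 and 34.4%, 34.8%, 58.1% and 88.4% of the wild-type signal. The count of 10 became 2 when overexpressor replicate a or replicate c was left out, and 3 when wild-type replicate a was. It was 0 without wild-type replicate b and without both arrays lettered a.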

How the data were processed

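One table of linear signal intensity per probe set and array was used, as deposited by the authors. Neither labels nor table name the software behind it. The deposited intensity values were already scaled, and no further normalisation was applied. The members and gene lists were chosen with earlier results of these data known. Probe sets were named from the platform annotation, with 13513 of 22746 naming 1 gene, 503 several and 8730 none. The names were updated with the RefSeq gene table of TAIR10.1. Gene start positions in that table also gave the order along each chromosome for adjacency, and no coordinates are given here. Roles of products were assigned by hand from general knowledge of the loci, since those tables give no descriptions to apply the planned keyword rule to. This was done after the members' values had been seen, and the groups differ from those planned: defence was added, kinases were joined in a signalling group by a phosphatase and by calcium-binding, WD40 and Mo25 proteins, and a group of regulators was dropped. Promoter motifs and protein lengths were not analysed here. Values on every array are given for up to 3 members of each role with the highest wild-type mean, the 8 lowest and 5 highest shares left, and the 3 smallest and 3 largest wild-type ratios (37 genes). That rule was planned, but the role groups it draws on were not. Other genes were named after their values were seen.

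The background fit used limma 3.58.1 (lmFit, then eBayes; R 4.3.3) on log2(signal + 16), on 3 arrays per group, after the 25% of probe sets with the lowest mean log2(signal + 16) were left out. The plan did not say whether this mean was linear or log2. The linear mean was run first, and the log2 mean was adopted after its counts were found to match earlier results of these data. The fit was also run on simulated data with independent arrays. These lack the correlation within letters found here, so that run does not show how the fit does on such data. Fold changes on this scale are understated for dim probe sets, since 54 of the 129 overexpressor means lay below 16. The number of arrays limits the precision. Deviations from group means correlated between arrays of the same letter with r = 0.57, 0.36 and 0.38 over all probe sets tested for a, b and c, and 0.30, 0.02 and 0.27 over the 129. On the values over all probe sets, the letters were taken as pairs in the alternative with a replicate block.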

Additional observations from a re-analysis of the deposited data

Results flagged for a closer look

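In overexpressor replicate a, 25S ribosomal RNA, a control that entered none of the comparisons, had a signal of 3079.6, above its level on the wild-type arrays (11.1 to 32.6). Without that array, 121 probe sets met the limits, 117 of them among the 129, and the median share left was 12.4%.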

How the results depend on the processing

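The number of probe sets within the limits stayed within 1.5 times of 129 under all alternatives run: 116 after quantile normalisation, 119 after median scaling, 132 with the geometric mean, 131 with the median of the arrays, and 118 to 138 with 1 array left out. Of the 129, 72 met the limits with each single array left out in turn. The median share left ran from 7.44% to 14.6% with 1 array left out, was 16.9% without both arrays lettered a, and 10.3% as a ratio within letters. With the replicate block, 126 of the 129 were called lower, and 570 probe sets in all were lower and 71 higher, against 370 and 23 without it, while the pollen genes outside the 129 stayed at 10. A pseudocount of 1 gave 70 of the 129, 209 lower and 13 higher in all, and 4 pollen genes. Leaving out the lowest 50% gave 10 of the 129 and 180 lower in all, with 11373 probe sets tested. Many of the 129 did not enter that fit. Of the 37 genes named by the planned rule, 6 entered it and 4 were called, so 10 of 129 is not a rate of failed calls. Filtering on the mean linear signal, the first choice run, tested 17057 probe sets and gave 115 of the 129, 379 lower and 23 higher in all. No filter gave 6 pollen genes, and array weights gave 39 higher. Without both arrays lettered a, 36 of the 129 were called, with 84 lower and 9 higher in all and 0 pollen genes. With 1 array left out, the calls ran from 14 to 117 of the 129, from 30 to 386 lower, from 0 to 16 higher, and from 0 to 9 pollen genes. The 0 higher and 0 pollen genes came without wild-type replicate b, where limma gave 345 higher and 821 lower at an unadjusted p under 0.05. Beyond fewer arrays or probe sets, the cause was not tested. The count of lower neighbours, 4, was recomputed after the data were seen, and was 0 with a pseudocount of 1 and 2 with no filter. Dim probe sets are limited by the floor of the scale.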
